A study of Mus musculus with 6 samples.

Results

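The genes described here are 10 that encode collagen chains (Col8a1, Col4a1, Col4a2, Col4a5, Col4a6, Col7a1, Col17a1, Col18a1, Col5a2 and Col27a1) out of 20756 genes in the table. They were chosen with earlier results of these samples known, from the levels in control cells and in cells edited at Prkci and Prkcz. Differences between those genotypes in the 10 genes are therefore given as a description. No p-value is given for them, and the count of those past the threshold of the fit over all genes is no evidence about them.

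Collagens are extracellular matrix proteins built from 3 polypeptide chains wound into a triple helix, and each chain has its own gene. Epithelial cells sit on a basement membrane whose scaffold is a network of type IV collagen, and they add type XVIII collagen, a basement membrane proteoglycan, and type VII and type XVII collagens, which tie basal cells to the matrix beneath. Fibrillar collagens of types I, III and V are mostly made by fibroblasts.

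The 6 samples, which the labels call MTO, were of mouse strain C57BL/6, untreated, and grown in B-27 supplemented medium with 50 ng/ml EGF. All had received a guide RNA: 3 a control guide (sgC, the control cells below) and 3 guides against Prkci and Prkcz (sgPrkci/Prkcz, the edited cells below), which encode the atypical protein kinase C enzymes iota and zeta. The label is not spelled out in the sources used here, which also do not say whether an edited line was 1 clone, or how the replicates were grown, although the design text calls replicates biological. A p-value therefore reflects only the spread among these 6 samples, which may be technical. That text speaks of tumors, while the table is marked as in vitro. Values are CPM, reads per 1000000 reads assigned to genes, from a 3′ tag library that yields tags near the end of a transcript and is not divided by gene length.

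The libraries held 2821908 to 3048170 reads in the controls and 1543826 to 1808292 in the edited cells, so depth moved with genotype. Prkcz mRNA fell by 1.24 on the log2 scale (Benjamini-Hochberg adjusted p = 0.00967 by limma), a call lost with DESeq2 (adjusted p = 0.205) and without sgPrkci/Prkcz replicate 3 (limma, Benjamini-Hochberg adjusted p = 0.0612), and Prkci mRNA was not called (0.00; adjusted p = 0.986). Prkcz passed the filter of at least 1 CPM in at least 3 libraries only through the controls. A 3′ tag outside an edited exon checks nothing about a cut. All 7 epithelial marker genes were detected, with a summed level of 3499 to 4043 CPM in the controls and 3695 to 4134 in the edited cells. The 7 fibroblast markers with a row summed to 0.328 to 2.35 CPM in the controls and 0.553 to 0.648 in the edited cells, and Lum and Fap were at 0. Of endothelial markers Pecam1 and Cdh5 were at 0 and Esam had 29 reads against 0, so the list summed to 3.54 to 4.02 CPM in the controls and at most 0.648 in the edited cells. The 3 pericyte and smooth muscle markers stood at 0.670 CPM or less, with Acta2 at 0, and the 3 immune markers at 5.25 to 7.71 CPM in the controls and 7.74 to 14.3 in the edited cells, mostly Cd68.

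Of the 10 genes, 6 passed the filter of at least 1 CPM in at least 3 libraries, namely Col8a1, Col18a1, Col4a1, Col4a2, Col4a5 and Col7a1, and Col8a1 and Col7a1 passed only through sgC. Col27a1 had 2 reads in the controls and 0 in the edited cells, Col17a1 and Col5a2 were listed at 0 in every library, and Col4a6 was not analysed here. A count of 0 over a genotype (a floor of 3 reads) allows up to 0.339 CPM in the controls and 0.587 CPM in the edited cells. The hemidesmosome chain Col17a1 and the fibrillar chain Col5a2 were thus not detectable at this depth.

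The start regions of Col8a1 and Col4a5 are shown because these genes had the largest differences down and up. They are RefSeq sequences on GRCm38.p6, read 5′ to 3′ on the gene's strand and ending before the first annotated exon. Capitals mark matches, on either strand, to any of 5 short motifs. These are the CCAAT box, the TATA box with the letters TATAAA, the GC box with the letters GGGCGG (which reads CCGCCC on the other strand), the AP-1 motif TGANTCA and the TEAD motif GGAATG. No matches overlap in the stretches printed.

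Col8a1, chr16:57754738-57754987, minus strand: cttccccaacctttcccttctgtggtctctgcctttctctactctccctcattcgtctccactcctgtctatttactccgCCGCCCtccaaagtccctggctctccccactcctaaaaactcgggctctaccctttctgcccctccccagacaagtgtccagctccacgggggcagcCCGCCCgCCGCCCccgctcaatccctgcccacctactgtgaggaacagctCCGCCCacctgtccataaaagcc

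Col4a5, chrX:141475169-141475384, plus strand: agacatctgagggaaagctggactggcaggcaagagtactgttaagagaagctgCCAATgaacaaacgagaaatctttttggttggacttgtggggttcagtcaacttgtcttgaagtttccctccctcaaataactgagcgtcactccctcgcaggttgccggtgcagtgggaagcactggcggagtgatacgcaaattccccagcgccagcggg

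The Col8a1 stretch held GGGCGG at 4 places, the nearest ending 18 bases before the start site, and no match to the other motifs. GGGCGG occurs in 32.7% of all 32851 RefSeq windows of 250 bases before a start, so its presence is common. The Col4a5 stretch held 1 CCAAT, which occurs in 33.9% of windows. The full window of 250 bases before its RefSeq start also held 1 GGGCGG, in the part not printed, so the presence of this motif is not particular to Col8a1. How many of all windows hold 4 matches was not counted. In the windows of 250 bases GC content was 60.8% for Col8a1 and 54% for Col4a5, against a median of 52.4% over all windows. TGANTCA (6.75% of all windows) was in none of the 10 windows found for 9 of the genes, GGAATG (12.6%) was in 1 of the windows of Col18a1, and TATAAA (12.4%) was in that of Col17a1. A match is a string of letters and not a site shown to be used.

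The genes Col4a1 and Col4a2 lie head to head on chromosome 8 and start from opposite strands at the same place, which is shown because both genes were higher in the edited cells. Their annotated starts, at positions 11312826 and 11312805, overlap by 22 bases, in capitals here, with GRCm38 coordinates and the plus strand.

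Col4a1 and Col4a2, chr8:11312801-11312830, plus strand: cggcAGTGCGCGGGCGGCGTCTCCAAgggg

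The windows of 250 bases before these starts had GC contents of 74.4% and 73.6%, in the 95.4th and 94.7th percentiles of all windows. Col4a5 and Col4a6 are also arranged head to head, on the X chromosome, with start sites 1343 bases apart.

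Col8a1 (ENSMUSG00000068196; 4 exons on the minus strand of chromosome 16, positions 57624258 to 57754737) showed the widest gap of the 6 genes. It encodes a short-chain collagen that forms hexagonal networks, known from the eye's Descemet's membrane and from vessel walls. Its level was 159, 113 and 157 CPM in the sgC libraries and 1.70, 2.21 and 0 CPM in the sgPrkci/Prkcz libraries, or 473, 343 and 443 reads against 3, 4 and 0. All sgC libraries stood far above every edited library, and sgC replicate 2 was the lowest of its group. The mean was 143 ± 26.1 CPM against 1.31 ± 1.16 (SD, n = 3 each), a log2(CPM + 1) difference of -6.11 ± 0.359 (SE). Over pooled reads the level in the controls was 104 times that in the edited cells, with an exact 95% counting interval of 50.3 to 259. On the log2 scale the difference ran from -7.56 with a pseudocount of 0.1 to -4.55 with a pseudocount of 5. In bulk RNA, fewer cells with the transcript and less transcript per cell cannot be told apart. The endothelial marker list moved the same way, from at least 3.54 CPM in every control library to at most 0.648 CPM, almost all of it Esam, with Pecam1 and Cdh5 at 0, and its part in the Col8a1 level was not tested.

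The sgC libraries varied more in Col8a1 than read counting alone would give. Their chi-square per degree of freedom was 14.4, with a coefficient of variation of 18.3% against 4.88% from counting. For Col18a1 in the same libraries the values were 0.0825, 1.66% and 5.76%, so its 3 libraries differed by no more than sampling noise. For Col4a5 in the controls the chi-square value lay between (3.30). Its coefficient of variation, 24.2% against 13.2% from counting, was larger than those of Col8a1 and Col18a1 in the controls. That of Col7a1, with 18 reads in the controls, was 33.8% against 40.8% from counting.

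Col18a1 (ENSMUSG00000001435; 41 exons on the minus strand of chromosome 10, positions 77052178 to 77166548), the chain of type XVIII collagen and source of the fragment endostatin, was lower in the edited cells. It had 102, 104 and 100 CPM in the controls and 71.0, 64.1 and 58.3 CPM in the edited cells. The sgC libraries lay almost together, and the lowest of them was above the highest edited library. The means were 102 ± 1.70 and 64.5 ± 6.37 CPM (SD, n = 3 each), a log2 difference of -0.66 ± 0.114 (SE) that ran from -0.73 to -0.41 over all alternatives. Over pooled reads sgC was higher by a ratio of 1.58 (95% counting interval 1.39 to 1.79). On the opposite strand Slc19a1, a folate carrier gene, covers the 3′ end of Col18a1, and the strand setting of the counting is not given in the sources used here, so tags of the 2 genes may be mixed. Slc19a1 had 104 reads in the controls and 43 in the edited cells, against 904 and 331 for Col18a1.

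Col7a1 (ENSMUSG00000025650; 119 exons on the plus strand of chromosome 9, positions 108953586 to 108984875), the chain of anchoring fibrils, was low throughout. It had 8, 4 and 6 reads in the controls and 1, 0 and 1 in the edited cells, or 2.68, 1.31 and 2.13 CPM against 0.568, 0 and 0.648 CPM. The groups did not overlap, but the edited libraries sat within 1 read of 0. The pooled ratio, control over edited, was 5.20 with a 95% counting interval of 1.24 to 46.2, and the log2 difference of -1.12 moved between -2.48 and -0.38 over the alternatives that tested the gene. Its partner in basal cells, Col17a1, a transmembrane collagen of hemidesmosomes, was listed at 0.

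The tested type IV chains were higher in the edited cells, with the largest difference in Col4a5. Chains 1 and 2 form the trimer found in nearly all basement membranes, while chain 5 joins either chain 6 or chains 3 and 4. Col4a1 (ENSMUSG00000031502; 52 exons, chromosome 8, positions 11198423 to 11312826) had 27.8, 32.8 and 34.7 CPM in the controls and 42.0, 43.7 and 46.6 CPM in the edited cells. Every edited library lay above every control library, the nearest pair being 34.7 and 42.0 CPM. The means were 31.8 ± 3.56 and 44.1 ± 2.33 CPM (SD, n = 3 each), a log2 difference of 0.47 ± 0.148 (SE). The antisense gene Gm15418, not analysed here, covers the 3′ end of Col4a1, so tags of both may be mixed.

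Col4a2 (ENSMUSG00000031503; 48 exons, chromosome 8, positions 11312805 to 11449287) had 45.6, 43.0 and 49.6 CPM in the controls and 54.0, 50.9 and 63.5 CPM in the edited cells. The groups did not overlap, though sgC replicate 3 and sgPrkci/Prkcz replicate 2 were close. The means were 46.1 ± 3.34 and 56.1 ± 6.57 CPM (SD, n = 3 each), a log2 difference of 0.28 ± 0.134 (SE) that fell to 0.18 without sgPrkci/Prkcz replicate 3. Chromosome 8, which carries both genes, had a median log2 fold change of -0.40 over its 633 tested genes, against -0.17 over all tested genes. With each chromosome's median set to 0 the differences were 0.86 for Col4a1 and 0.67 for Col4a2. The ratio of Col4a2 to Col4a1 reads was 1.46 ± 0.166 in the controls and 1.27 ± 0.0990 in the edited cells (SD, n = 3 each), and the ranges, 1.31 to 1.64 and 1.16 to 1.36, overlapped.

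Col4a5 (ENSMUSG00000031274; 53 exons on the plus strand of the X chromosome, positions 141475385 to 141689234) had the largest difference of the type IV chains. It had 17.4, 16.1 and 24.8 CPM in the controls and 59.1, 54.7 and 53.1 CPM in the edited cells. The edited libraries lay close together, and the lowest was more than 2 times the highest control library. The means were 19.4 ± 4.70 and 55.6 ± 3.08 CPM (SD, n = 3 each), a log2 difference of 1.49 ± 0.166 (SE) and a pooled ratio of 2.89 (95% counting interval 2.38 to 3.51). Its reads per Col4a1 read were 0.610 ± 0.113 in the controls and 1.27 ± 0.134 in the edited cells (SD, n = 3 each), from 0.490 to 0.714 and from 1.14 to 1.41, so the balance of the type IV chain transcripts differed between the genotypes without overlap. The ratio of Col18a1 to Col4a1 reads, 3.24 ± 0.400 and 1.47 ± 0.220 (SD, n = 3 each), did not overlap either.

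Col4a5 is X-linked, and the genotypes differed in sex chromosome transcripts. Ddx3y, a gene of the Y chromosome, had 0 reads in every sgC library and 53, 80 and 42 in the edited cells, while Xist, the RNA of the inactive X, had 4 reads in the controls and 1 in the edited cells. This difference goes with genotype for every gene described here, X-linked or not. Its part in the level of Col4a5, or of any other gene, was not tested. The median log2 fold change of the 368 tested genes on the X chromosome was -0.08. A processed pseudogene inside Col4a5 on the same strand, Gm15268, had 23 reads in the controls and 28 in the edited cells (a log2 rise of 0.87; Benjamini-Hochberg adjusted p = 0.0460 by limma). That call was lost in 7 of the alternatives, among them without sgC replicate 1 or 2 and without sgPrkci/Prkcz replicate 1 or 3. Reads may be shared between such overlapping genes.

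**Figure D1:**
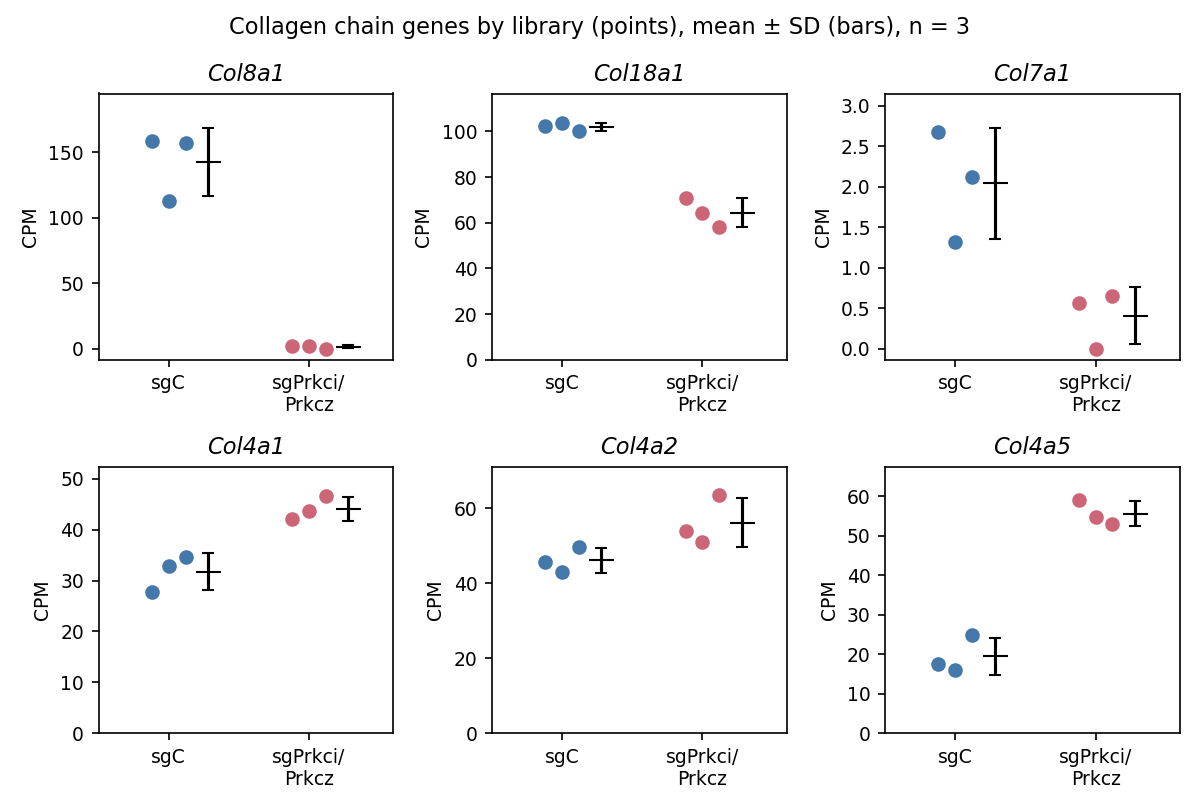
CPM of the 6 collagen chain genes that passed the filter, by genotype, with a point for each library and a bar for the mean ± SD of 3 libraries. The groups do not overlap in any panel: Col8a1, Col18a1 and Col7a1 are lower in the edited cells, and Col4a1, Col4a2 and Col4a5 are higher. The genes were chosen on this contrast, and the groups also did not overlap in 45.0% of all 12207 tested genes.

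The fit across all genes (limma, Benjamini-Hochberg adjusted p under 0.05) put 5 of these 6 genes past its threshold, 2 higher (Col4a5 and Col4a1) and 3 lower (Col8a1, Col18a1 and Col7a1). The genes were chosen on this contrast, and Col8a1 and Col7a1 entered the fit only through the controls, so nothing is read from this count. The background was 35.2% of 12207 tested genes past the threshold in either direction, 11.4% higher and 23.8% lower, and the groups did not overlap in 45.0% of tested genes. For edgeR the background was 38.1% (19.9% higher and 18.2% lower), for DESeq2 22.1% (12.8% and 9.29%), and relative to the median change of all genes, -0.17, it was 31.8% (17.4% and 14.4%). The placing of Col4a2 and Col7a1 differed between these methods.

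Col8a1 held the largest share of the collagen chain reads in the controls, and the type IV chains together held most of them in the edited cells. The 32 collagen chain genes with a row, of 44 looked for, summed to 367, 322 and 381 CPM in the controls and 247, 223 and 237 CPM in the edited cells. Without Col8a1 the sums were 214 ± 8.92 and 234 ± 12.1 CPM (SD, n = 3 each), from 208 to 224 and from 221 to 245, so they overlapped. Of all collagen chain reads, Col8a1 took 39.8% ± 4.33 in the controls and 0.560% ± 0.508 in the edited cells (SD, n = 3 each). The share of Col4a5 was 5.42% ± 0.951 against 23.6% ± 1.09, that of Col4a2 12.9% ± 0.460 against 23.8% ± 2.60 and that of Col4a1 8.96% ± 1.30 against 18.8% ± 1.48. The share of Col18a1 overlapped between the genotypes, at 28.8% ± 3.04 and 27.4% ± 2.41. Shares of a sum are not independent, and a lower share of Col8a1 raises the others.

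**Figure D2:**
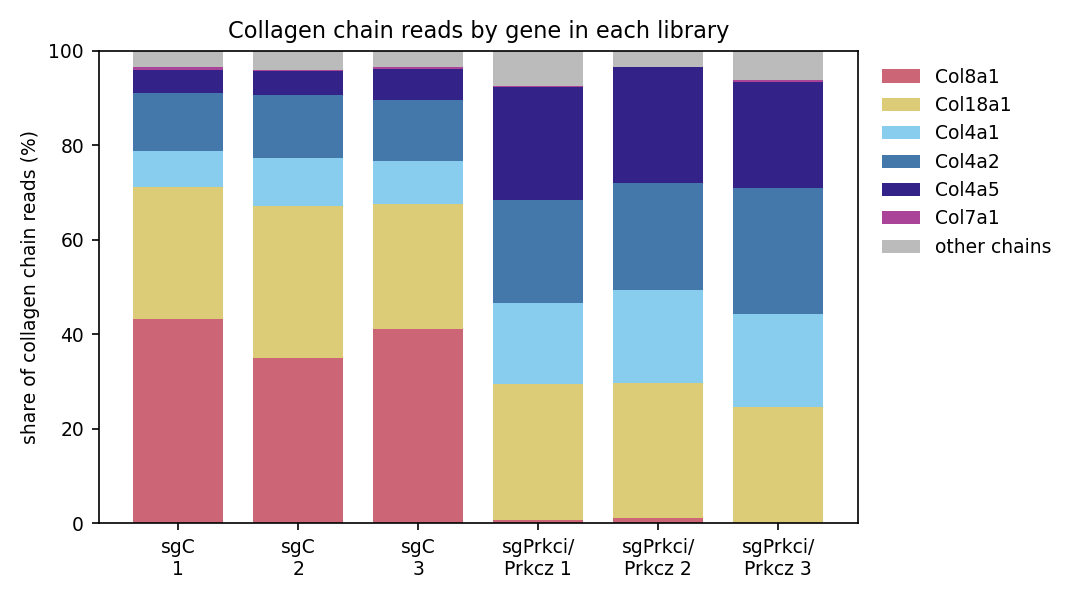
Share of the reads of all collagen chain genes taken by each gene, in percent, in each of the 6 libraries. Col8a1 holds 34.9% to 43.2% of the reads in the sgC libraries and at most 0.990% in the sgPrkci/Prkcz libraries, where the type IV chains fill most of the bar.

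Among the 34 other collagen chain genes, 23 had a row and 2 were tested, and none of the 2 was called (limma, with 1 at a raw p under 0.05; edgeR and DESeq2 also called 0). Col28a1, a beaded-filament collagen, had 2.68, 2.30 and 2.13 CPM in the controls and 7.39, 3.32 and 3.89 CPM in the edited cells (a log2 difference of 0.74; Benjamini-Hochberg adjusted p = 0.0960 by limma). All 3 edited libraries were above the controls, and the gene was called after median centring (adjusted p = 0.0440) and with quantile normalization (limma, Benjamini-Hochberg adjusted p = 0.0309). Col14a1, which binds to the surface of collagen fibrils, stood at 7.70 ± 1.74 and 7.18 ± 2.65 CPM (SD, n = 3 each), with overlapping groups. The remaining 21 genes had at most 5 reads over all 6 libraries, and 4 of them were at 0. They include the fibroblast chains Col1a1 (3 reads in the controls and 0 in the edited cells), Col1a2 (2 and 1) and Col3a1 (1 and 0).

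The nearest tested genes on either side of the collagen genes went in both directions. The 3 nearest on each side of each of the 6 genes made 30 genes, of which 4 rose and 6 fell (limma, Benjamini-Hochberg adjusted p under 0.05), near the 35.2% of all tested genes. Beside Col8a1, 2 rose and 3 fell. Filip1l, a gene 51.1 kb away, rose from 73.6 to 131 CPM (log2 fold change of 0.83), and Cmss1, 17.4 kb away, fell from 2.46 to 0.585 CPM (-1.16; Benjamini-Hochberg adjusted p = 0.0287 by limma), a call lost in 8 alternatives, among them without sgC replicate 1 or 2 and without sgPrkci/Prkcz replicate 1. Cmss1 passed the filter only through the controls, so its place among the 6 that fell is no separate evidence. Farther out Dcbld2 (-0.60) and Cpox (-1.13) fell and St3gal6 (0.63) rose. Of the 6 beside the Col4a1 and Col4a2 pair, Cars2, a mitochondrial tRNA synthetase gene, was the one past the threshold (-1.05), and its call was lost without sgC replicate 2, with DESeq2 and with chromosome medians set to 0. Beside Col4a5, Vsig1, a gastric junction gene 536 kb away, rose (2.90), while Psmd10, 519 kb away, stood at 61.1 CPM in the controls and 57.4 in the edited cells.

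**Figure D3:**
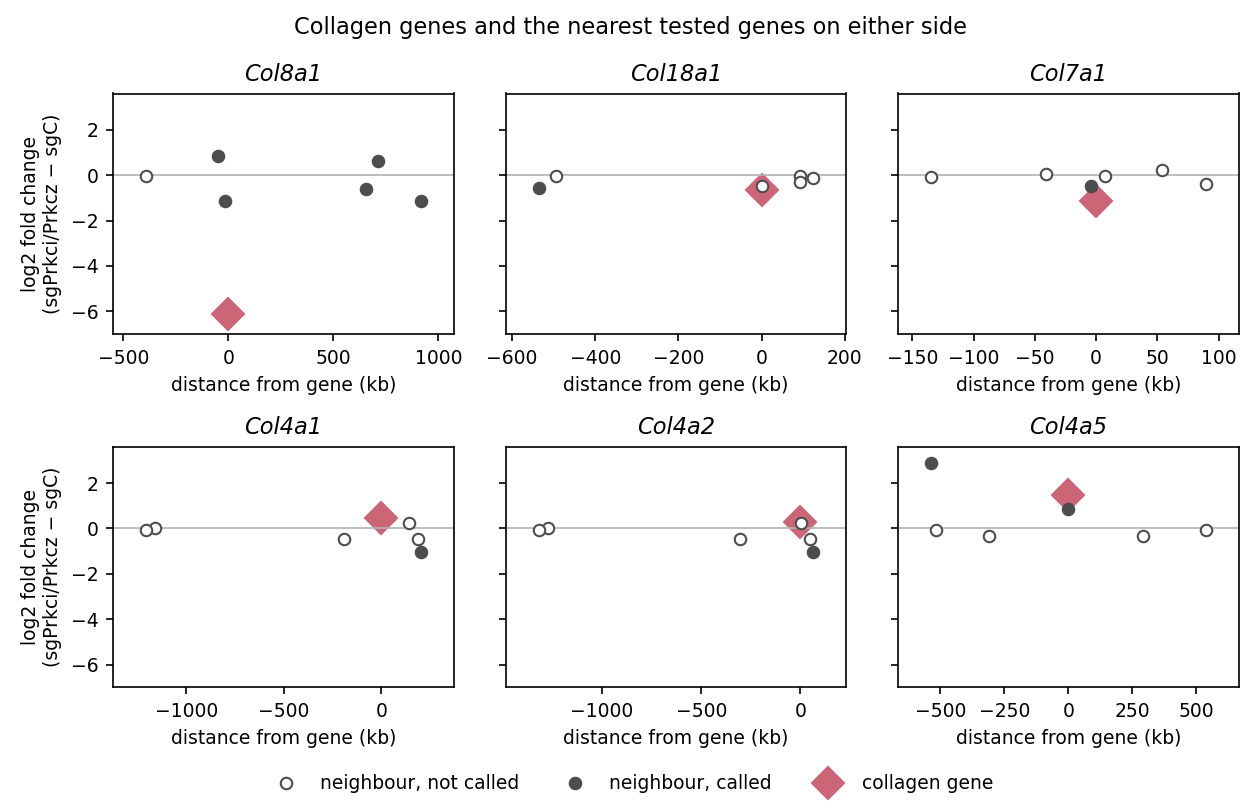
Log2 fold change on the log2(CPM + 1) scale, sgPrkci/Prkcz minus sgC, against the distance in kb from each collagen gene (diamond) to the 3 nearest tested genes on either side (circles, filled where the limma adjusted p is under 0.05). Col8a1 lies at -6.11 while its neighbours lie between -1.16 and 0.83.

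Of 10 tested genes on the collagen receptor list 6 rose and 1 fell, where 11.4% of all tested genes rose and 23.8% fell, and the list median was 0.39 against -0.17 over all tested genes. The list was broad, and the 3 not called were the integrin genes Itga3, Itgav and Itgb5. Itga2, the collagen-binding integrin subunit alpha 2, had 2, 0 and 0 reads in the controls and 18, 11 and 18 in the edited cells. Its pooled ratio was 40.7 with a 95% counting interval of 10.7 to 346. It passed the filter only through the edited cells, so its place among the 6 is no separate evidence. Ddr1, a receptor tyrosine kinase activated by collagen, rose from 166 ± 15.1 to 277 ± 24.5 CPM (SD, n = 3 each), a log2 fold change of 0.73 ± 0.0938 (SE; limma, Benjamini-Hochberg adjusted p = 4.58e-07). Cd44 (0.79), the syndecans Sdc4 (0.47) and Sdc1 (0.31) and the adhesion receptor Adgrg1 (1.32) also rose. Itgb1, the shared beta 1 subunit that pairs with the alpha 2 chain, fell from 470 ± 10.1 to 369 ± 25.3 CPM (-0.35). It lies on chromosome 8, and its call was lost with DESeq2 (adjusted p = 0.0697), after median centring (Benjamini-Hochberg adjusted p = 0.0684 by limma) and with chromosome medians set to 0, where it stood at 0.043.

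Of 16 tested genes that fold and modify collagen, 1 rose and 3 fell, 25% of the list against 35.2% of all tested genes, and the list median was -0.03. Among the 12 not called were the prolyl hydroxylase P4ha1, at 105 CPM in the controls and 108 in the edited cells, the lysyl hydroxylase Plod3 (25.5 and 24.9), the collagen galactosyltransferase Colgalt1 (130 and 132) and the folding enzyme Ppib (82.6 and 81.1). Creb3l2, a membrane-bound transcription factor that induces secretory pathway genes, rose from 30.1 ± 4.65 to 55.1 ± 7.97 CPM (SD, n = 3 each), a log2 fold change of 0.85 (Benjamini-Hochberg adjusted p = 7.53e-05 by limma). Tmem38b, an endoplasmic reticulum cation channel needed for collagen processing, fell from 27.9 ± 0.944 to 14.1 ± 2.06 CPM (-0.95). Fkbp9, a prolyl isomerase, fell from 5.07 to 1.53 CPM, or 45 and 8 reads in all (-1.35), a call lost with DESeq2 (adjusted p = 0.139). Fkbp9 passed the filter only through the controls, so its place among the 3 that fell is no separate evidence. The fall of P4hb (-0.28), the disulfide isomerase subunit of prolyl hydroxylase, was lost in 6 alternatives, among them without sgC replicate 2 and with chromosome medians set to 0, where it was 0.17.

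Of 20 tested genes that carry procollagen out of the endoplasmic reticulum, 3 rose and 3 fell, 30% of the list and close to the 35.2% of all tested genes. The list median was -0.09 and no called change was above 0.56 in size. Klhl12, a ubiquitin ligase adaptor for large carriers, rose from 15.5 ± 2.67 to 23.1 ± 0.910 CPM (0.56). Its partner Cul3 (0.24) and the cargo receptor Mia3 (0.24) rose, while Mia2, a relative of Mia3 (-0.37), and the coat genes Sec24a (-0.55) and Sar1b (-0.34) fell. The split was 5 and 1 after median centring. Without sgC replicate 2, and without sgPrkci/Prkcz replicate 2, the calls of Klhl12, Cul3 and Mia3 were lost, which left the 3 falls. That of Mia3 was also lost without sgC replicate 1 or 3 and without sgPrkci/Prkcz replicate 1, and that of Cul3 without sgC replicate 1 and without sgPrkci/Prkcz replicate 3. The call of Klhl12 was also lost with DESeq2 and without sgPrkci/Prkcz replicate 3, and that of Sar1b without sgC replicate 3 and without sgPrkci/Prkcz replicate 1. The falls were not stable either, as DESeq2 called none of Mia2, Sec24a and Sar1b. Mia2 and Sar1b also lost their calls after median centring and with edgeR, and Sar1b with TMM-scaled CPM and quantile normalization. Sec24a and Sar1b lie on chromosome 11, whose tested genes had a median of -0.44, and with chromosome medians set to 0 they stood at -0.11 and 0.11.

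Among enzymes of maturation and crosslinking, 3 of 8 rose and 3 fell, 75% of the list against 35.2% of all tested genes. Pcolce, which enhances cleavage of the procollagen C-propeptide, fell from 53.0, 55.8 and 49.6 CPM in the controls to 10.8, 8.30 and 15.5 CPM in the edited cells. All edited libraries lay far under the controls, with a log2 fold change of -2.14 ± 0.191 (SE; limma, Benjamini-Hochberg adjusted p = 5.54e-10). Its relative Pcolce2 rose (0.66), a call lost without sgC replicate 1 (Benjamini-Hochberg adjusted p = 0.160 by limma) and without sgPrkci/Prkcz replicate 2 (0.0749). Qsox1, a secreted sulfhydryl oxidase that acts on laminin and matrix, rose from 33.5 ± 2.95 to 110 ± 13.2 CPM (1.69). Tgm2, a crosslinking transglutaminase, rose from 1.49 to 4.35 CPM, or 13 and 22 reads in all (1.15), a call lost with DESeq2 and without sgC replicate 1. Tgm2 passed the filter only through the edited cells, so its place among the 3 that rose is no separate evidence. The convertase Pcsk6 (-0.64) and the lysyl oxidase Loxl4 (-0.61) fell. The call of Loxl4 was lost in 11 alternatives, among them without any of the sgC replicates and without sgPrkci/Prkcz replicate 1 or 2.

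Of 8 tested partners of the collagens in the basement membrane, 0 rose by limma and 3 fell (raw p under 0.05 for 0 rises). A rise of 1 gene was called by edgeR, and by limma after median centring and with TMM-scaled CPM, while DESeq2 called 0. The 3 falls were 37.5% of the list, near the 35.2% of all tested genes, with a list median of -0.36. Hspg2, which encodes perlecan, a heparan sulfate proteoglycan that binds type IV collagen, fell from 16.1 ± 4.03 to 6.39 ± 1.29 CPM (SD, n = 3 each), a log2 fold change of -1.20 (Benjamini-Hochberg adjusted p = 4.66e-04 by limma). Npnt, the integrin ligand nephronectin, fell from 642 ± 48.4 to 300 ± 66.5 CPM (-1.12), and Tinagl1, a matricellular protein, from 161 ± 10.9 to 103 ± 9.89 CPM (-0.64). The laminin genes Lama5, at 131 CPM in both genotypes, and Lamb2, at 68.7 and 70.3 CPM, were not called.

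Of 10 tested hemidesmosome and anchoring fibril partners, 3 rose and 2 fell, 50% of the list against 35.2% of all tested genes. Krt14, a basal keratin that hemidesmosomes anchor, fell from 91.0 ± 10.1 to 9.18 ± 0.723 CPM (SD, n = 3 each), a log2 fold change of -3.17 (Benjamini-Hochberg adjusted p = 2.83e-15 by limma), and tags may be shared within the keratin family. The linker plectin, Plec, fell (-0.64). Itga6, the laminin-binding integrin subunit of hemidesmosomes, rose from 668 ± 29.0 to 832 ± 12.9 CPM (0.32), and the anchoring laminin chain Lama3 (0.36) rose. The count was 3 in place of 5 without sgC replicate 2, and the call of Lama3 was lost without that library and without sgPrkci/Prkcz replicate 1. Itgb4, the partner of Itga6, stood at 119 and 110 CPM and was not called.

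Of 13 tested genes of collagen breakdown 2 rose and 6 fell, 61.5% of the list against 35.2% of all tested genes. The 3 tested tissue inhibitors of metalloproteinases were among the fallen, a group picked out after its values were seen. Timp2 fell from 325 ± 13.8 to 179 ± 17.0 CPM (SD, n = 3 each), a log2 fold change of -0.86 (Benjamini-Hochberg adjusted p = 1.10e-08 by limma). Timp1 fell from 54 to 8 reads in all (-1.48), and Timp3 from 21 reads to 0. For Timp3 the counting interval of the pooled ratio, control over edited, started at 3.01. Timp3 passed the filter only through the controls. Timp1 was not called with DESeq2. The membrane-type proteases went both ways, as Mmp15 rose from 14.6 to 37.0 CPM (1.28) and Mmp24 fell from 11.1 ± 1.28 to 2.72 ± 1.65 CPM (-1.80), while Mmp14, which cleaves fibrillar collagen, stood at 89.8 and 98.3 CPM and was not called. Adam10, a sheddase, rose (0.58).

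Signals of the TGF-beta family, which regulate collagen genes in many cell types, gave 3 rises and 5 falls among 15 tested genes, 53.3% of the list against 35.2% of all tested genes, with a list median of -0.02. Among the falls was Tgfb2, with 11 reads in the controls and 0 in the edited cells, a call lost in 9 alternatives. Tgfb2 passed the filter only through the controls, so its place among the 5 is no separate evidence. The BMP ligands went in opposite directions, with Bmp4 lower (-3.72) and Bmp2 higher (1.56), and the BMP target genes Id1 (-0.87) and Id3 (-1.64) fell. Id2, another target and the most abundant of these, stood at 476 CPM in the controls and 480.4 in the edited cells and was not called (0.02). Tgfb1 rose from 8.60 ± 2.42 to 15.6 ± 1.80 CPM (0.81; Benjamini-Hochberg adjusted p = 0.00968 by limma), a call lost without sgC replicate 2 (0.0820).

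**Figure D4:**
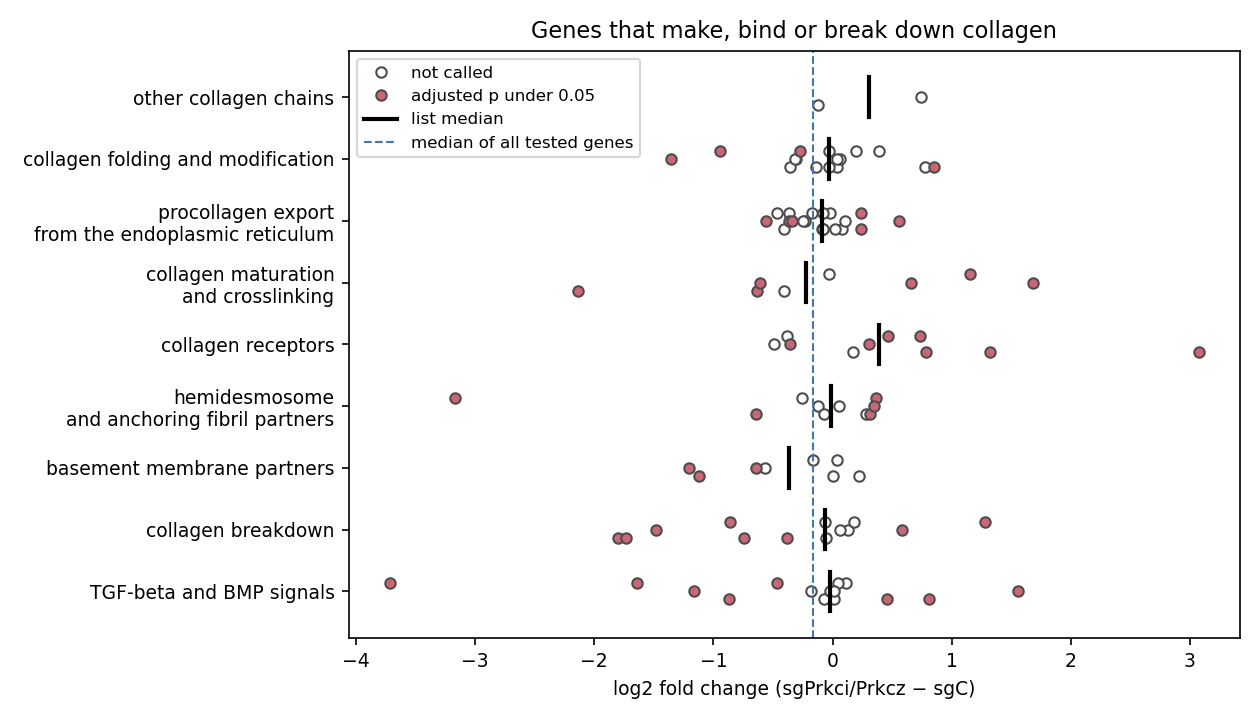
Log2 fold change on the log2(CPM + 1) scale, sgPrkci/Prkcz minus sgC, of every tested gene in 9 lists (circles, filled where the limma adjusted p is under 0.05), with each list's median (black bar) and the median of all tested genes (dashed line, -0.17). Receptor genes lie mostly to the right, and the folding and export lists cluster near 0. The receptor gene farthest to the right, Itga2 at 3.08, passed the filter only through the edited cells.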

How the data were processed

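The authors deposited 1 table of CPM values for 20756 genes in 6 samples, made from 3′ tag libraries (200 ng of total RNA, single reads of 75 bases, optional molecular identifiers, per the labels' protocols). Per the submitters' processing notes the genome was GRCm38. Which aligner and counter were used, with what strand setting, and whether identifiers were counted, is not given in the sources used here. Columns were matched by title, and 0 other value columns were present. Symbols came from GENCODE M21 on GRCm38 (20675 of 20756 identifiers).

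In each library 100% of values were integer multiples of its lowest nonzero value (relative tolerance 1e-06), so reads were recovered. The main test was limma 3.58.1 in R 4.3.3 (trend, robust) on log2(CPM + 1). It covered the 12207 genes that reached 1 CPM in 3 or more samples, with genotype as the only factor, two-sided, Benjamini-Hochberg over all tested genes, threshold 0.05. The scale understates changes of low genes. edgeR 4.0.16 (quasi-likelihood) called 3754 genes and DESeq2 1.42.0 2549 on the recovered reads. Intervals are exact 95% intervals on pooled reads and, like floors, cover counting error only.

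The genes and lists were chosen with earlier results of these data known. Named were the 10 collagen genes, Prkci, Prkcz, up to 4 called genes per list with the smallest adjusted p, other collagen genes with at least 10 reads, Ddx3y and Xist; further genes were chosen after their values were seen. Lists were described by counts and medians only, and 1 listed gene is not reported by name here. The pipeline was tested on simulated data.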

Additional observations from a re-analysis of the deposited data

How the results depend on the processing

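The 16 alternatives were pseudocounts, filters, 3 scalings, edgeR, DESeq2, chromosome medians set to 0 and each sample left out. Of 176 counts of called genes, 165 stayed within 1.5 times the main value. DESeq2 gave 2549 calls over all genes in place of 4300, 2 in place of 4 for folding and modification, 2 in place of 6 for export and 4 in place of 8 for breakdown. Export gave 1 with chromosome medians set to 0, and 3 to 5 with a sample left out, and the hemidesmosome list 3 to 5. Among other collagen chains 1 gene was called, in place of 0, with no filter, after median centring and after quantile normalization. The split over all genes was 1391 risen and 2909 fallen, 2125 and 1756 after median centring, 1869 and 1936 with quantile normalization, and 1875 and 2127 with TMM-scaled CPM. With chromosome medians set to 0 the log2 fold changes of P4hb (0.17), Sar1b (0.11) and Itgb1 (0.043) changed sign; the first pair lie on chromosome 11 and Itgb1 on chromosome 8. Receptor splits were 7 and 0 there and after median centring, and breakdown 3 and 5 after it. Among comparisons of a single gene in a single alternative, 915 did not change side, 112 lost their call and 3 changed sign without a call. In 2 a call was gained, and 19 values of the collagen genes moved in size. The cause was not tested. The 6 collagen genes kept their sign in every alternative that tested them, from 0.18 to 0.67 for Col4a2 and from 1.33 to 1.67 for Col4a5. Depth limits Col7a1, Col27a1 and the genes at 0. No paired analysis was possible because the genotypes share no replicate numbers in the labels.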
